A study of Mus musculus with 2 samples.

Results

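The genes described here encode the enzymes that make serine from a glycolytic intermediate, the enzymes that move 1-carbon units between serine, folate and formate in mitochondria and cytosol, and the enzyme that opens proline synthesis. The group holds 10 genes, *Phgdh*, *Psat1*, *Psph*, *Shmt2*, *Mthfd2*, *Mthfd1l*, *Aldh1l2*, *Shmt1*, *Mthfd1* and *Aldh18a1*, of 13848 named genes measured. They were chosen by symbol, and all noncontrol probes whose transcript accession maps to one of these symbols were taken, which gave 15 probes. The samples were 1 pool of left ventricular RNA from heart-specific *Bmal1* knockout (H-Bmal1-/-) mice and 1 pool from control mice, each made from 6 male animals aged 12 weeks and collected at ZT 2 (2 h after lights on). H-Bmal1-/- mice carried a floxed *Bmal1* gene and a *Cre* transgene driven by the αMHC promoter, which is active in cardiomyocytes, so that the other cells of the ventricle keep the gene. The controls were littermates with the floxed gene and no *Cre*, although the sample labels call them wild type. An effect of Cre itself and an effect of the lost gene cannot be told apart with these pools. Each pool was hybridized in a single color to 1 Agilent SurePrint G3 Mouse array, so there is no error between replicates and no difference could be tested.

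Serine is made from the glycolytic intermediate 3-phosphoglycerate by PHGDH, PSAT1 and PSPH in turn. SHMT then splits serine into glycine and a 1-carbon unit carried on folate, SHMT2 in mitochondria and SHMT1 in the cytosol. In mitochondria the unit is oxidized by MTHFD2 and leaves as formate through MTHFD1L, or as carbon dioxide through ALDH1L2, which makes NADPH. In the cytosol the trifunctional MTHFD1 takes up the formate for purine, thymidylate and methionine synthesis. MTHFD2 is best known from embryonic and proliferating cells and is low in most adult tissues. In other systems, stress of mitochondria is known to raise several of these genes through the transcription factor ATF4.

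The genes of this group did not move as one. *Mthfd2* and *Mthfd1l* of the mitochondrial branch, *Phgdh* at the head of serine synthesis and *Aldh18a1* at the head of proline synthesis were at least 1.5-fold higher in the H-Bmal1-/- pool. *Aldh1l2*, also mitochondrial, was at least 1.5-fold lower, and the remaining 5 genes stayed within 1.5-fold. Thus 4 of 10 genes were at least 1.5-fold higher, where 6.15% of all measured genes were, and 1 of 10 was at least 1.5-fold lower, where 5.85% of all measured genes were. The median log2 ratio of the 10 genes was 0.30, against -0.01 for all measured genes. All values are the processed signal of the scanner software, and ratios are H-Bmal1-/- minus control on the log2 scale after the 75th percentile of its array was subtracted from each signal, 190 in the H-Bmal1-/- pool and 171 in the control pool. The error given with a ratio is computed from the signal errors that the same software assigns to each spot, and it holds no difference between animals.

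Serine synthesis was highest in the H-Bmal1-/- pool relative to control at its first step. *Phgdh*, which encodes the dehydrogenase that commits 3-phosphoglycerate to serine, had a processed signal of 149 ± 15.1 in the H-Bmal1-/- pool and 79.2 ± 8.41 in the control pool at its first probe. At its second probe the signal was 133 ± 13.6 in the H-Bmal1-/- pool and 68.8 ± 7.38 in the control pool. Both probes were thus well apart between the pools and gave nearly the same ratio, 0.76 and 0.81. The gene value was 0.78 ± 0.15 (a 1.72-fold higher level). *Psat1*, the aminotransferase of the next step, had a signal of 146 ± 14.9 in the H-Bmal1-/- pool and 92.3 ± 9.64 in the control pool at its bright probe. Its second probe was much dimmer, with 16.9 ± 3.24 in the H-Bmal1-/- pool and 10.8 ± 3.0 in the control pool, where it was not well above background. That probe was at least 1.37-fold higher, and over both probes *Psat1* was at 0.51 ± 0.27, which is 1.42-fold and short of 1.5-fold. That mean includes the measured ratio of the dim probe, and the bright probe alone was also at 0.51. *Psph*, the phosphatase that releases serine, was nearly level, with 277 ± 27.8 in the H-Bmal1-/- pool against 233 ± 23.5 in the control pool at one probe and 89.6 ± 9.43 against 74.8 ± 8.05 at the other. Its log2 ratio of 0.10 ± 0.15 was smaller than its error. The distance between the first and the last step of the pathway, *Phgdh* minus *Psph*, was 0.68 ± 0.21 on the log2 scale.

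**Figure D1:**
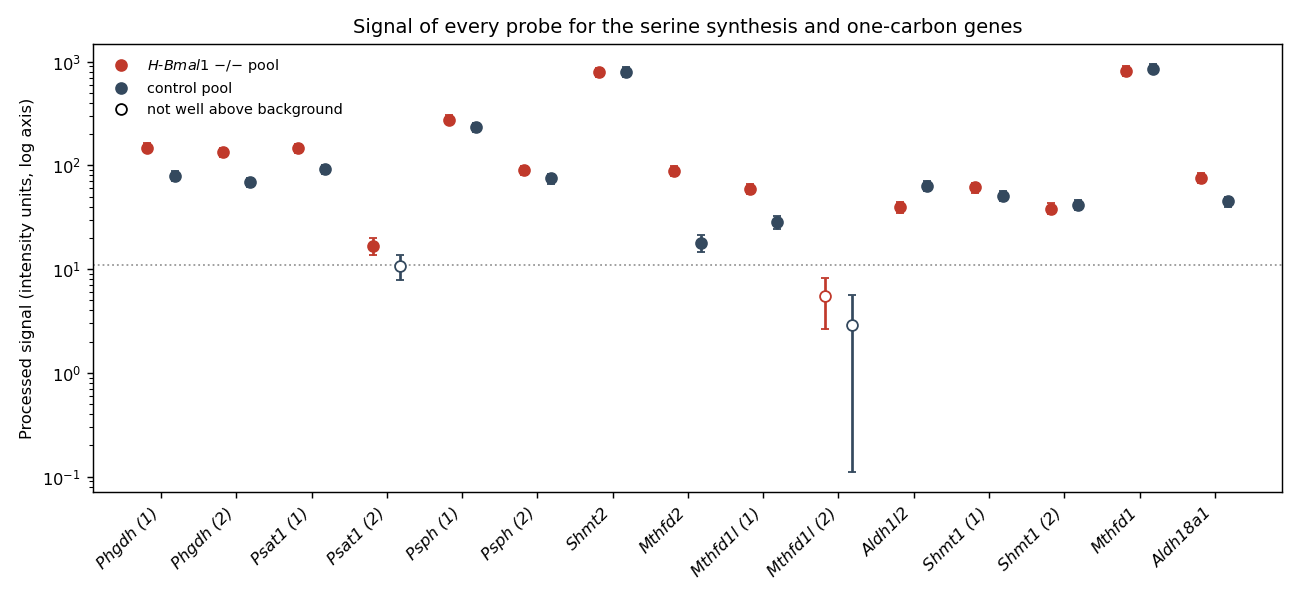
Processed signal of each of the 15 probes (vertical log axis, intensity units) in the H-Bmal1-/- pool (red, left of each pair) and the control pool (dark blue), with the error assigned by the scanner software. Open circles were not well above background, the dotted line marks the lowest signal that was (11.1), and the pair of *Mthfd2* stands farthest apart among the filled pairs, at 88.9 and 17.9.

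The mitochondrial branch held both the highest and the lowest ratio of the group. *Mthfd2*, the mitochondrial methylenetetrahydrofolate dehydrogenase and cyclohydrolase, had a signal of 88.9 ± 9.32 in the H-Bmal1-/- pool and 17.9 ± 3.40 in the control pool, from 1 probe. Its log2 ratio was 2.16 ± 0.31, a 4.46-fold higher level, and it ranked 31 from the top among 13051 named genes well above background on both arrays. The signal of the control pool was only 1.62 times the lowest signal called well above background on that array, so the fold rests on a dim spot. *Mthfd1l*, the enzyme that releases formate in mitochondria, had a signal of 59.1 ± 6.60 in the H-Bmal1-/- pool and 28.2 ± 4.08 in the control pool at its brighter probe. Its log2 ratio was 0.92 ± 0.26 (1.89-fold). A second probe, placed on another transcript of *Mthfd1l*, was not well above background in either pool, with 5.47 in the H-Bmal1-/- pool and 2.87 in the control pool, and gives no fold.

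*Aldh1l2*, which oxidizes the folate-bound formyl group to carbon dioxide in mitochondria, went the other way. Its signal was 39.6 ± 4.53 in the H-Bmal1-/- pool and 63.7 ± 6.74 in the control pool, with a log2 ratio of -0.84 ± 0.22 (1.79-fold lower). *Mthfd2* and *Aldh1l2*, which act on the same chain of folate intermediates, were therefore 3.0 ± 0.38 apart on the log2 scale. *Shmt2*, the enzyme that feeds this chain from serine, was among the brightest of the group and nearly equal in the pools, at 787 ± 78.7 in the H-Bmal1-/- pool and 799 ± 80.0 in the control pool. Its log2 ratio of -0.17 ± 0.20 did not exceed its error. *Mthfd2* minus *Shmt2* was 2.33 ± 0.37, so within 1 compartment the ratios of consecutive enzymes differed by more than the errors of their spots.

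The cytosolic enzymes lay slightly below 0. *Mthfd1*, which carries the synthetase, cyclohydrolase and dehydrogenase activities of the cytosol in 1 protein, had a signal of 817 ± 81.7 in the H-Bmal1-/- pool and 856 ± 85.6 in the control pool, and a log2 ratio of -0.22 ± 0.20. *Shmt1* was measured by a pair of probes on opposite sides of 0. The first had 61.4 ± 6.67 in the H-Bmal1-/- pool and 51.2 ± 5.74 in the control pool (0.11), and the other had 38.4 ± 4.58 in the H-Bmal1-/- pool and 41.9 ± 4.89 in the control pool (-0.28). Their mean of -0.08 ± 0.16 has no settled direction, and it became 0.07 without scaling between the arrays and 0.11 when only the brightest probe was taken. Set against their cytosolic counterpart *Mthfd1*, *Mthfd2* was 2.38 ± 0.37 and *Mthfd1l* 1.14 ± 0.33 higher in log2 ratio, whereas *Shmt2* minus *Shmt1* was -0.09 ± 0.26, smaller than its error. Thus *Mthfd2* and *Mthfd1l* differed from *Mthfd1* by more than the spot errors, and the SHMT isoforms could not be told apart.

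*Aldh18a1* encodes pyrroline-5-carboxylate synthase, the mitochondrial enzyme that turns glutamate toward proline. It had a signal of 76.3 ± 8.05 in the H-Bmal1-/- pool and 44.9 ± 5.16 in the control pool, from 1 probe. The log2 ratio was 0.62 ± 0.23, or 1.53-fold, which lies just inside the threshold, as *Psat1* at 1.42-fold lies just outside it.

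**Figure D2:**
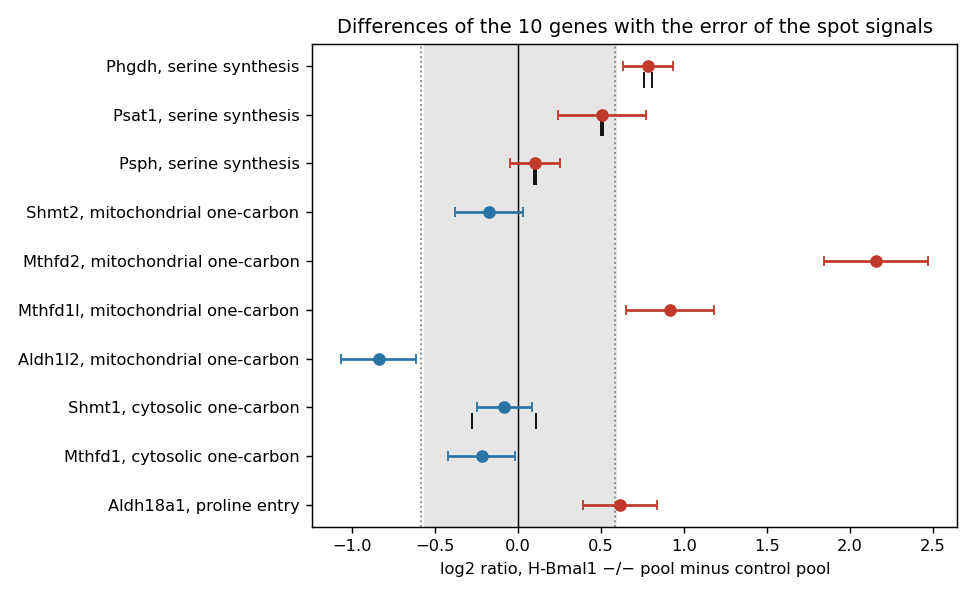
Log2 ratio, H-Bmal1-/- pool minus control pool, of each of the 10 genes (circles, red above 0 and blue below 0) with the error computed from the spot signals. Black ticks are single probes where a gene had more than 1, dotted lines mark 1.5-fold, and the gray band (-0.56 to 0.59) holds the middle of all genes well above background on both arrays, from the 5th to the 95th percentile. *Mthfd2*, *Mthfd1l*, *Phgdh*, *Aldh18a1* and *Aldh1l2* lie outside the band.

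Upstream sequences of the 4 genes that were at least 1.5-fold higher are shown because these genes moved in the same direction. RefSeq windows of GRCm38.p6, from 250 bases before to 50 bases after the annotated start, were found for 9 of the 10 genes (*Aldh1l2* was not matched) and are printed 5′ to 3′ on the strand of the gene. They lie at chr6:83317555-83317854 (*Mthfd2*, minus strand), chr10:3972825-3973124 (*Mthfd1l*, plus strand), chr3:98339920-98340219 (*Phgdh*, minus strand) and chr19:40588414-40588713 (*Aldh18a1*, minus strand). Capitals mark CACGTG, the E-box that CLOCK and BMAL1 bind, and CCAAT or its reverse complement, the CCAAT box bound by NF-Y.
Mthfd2: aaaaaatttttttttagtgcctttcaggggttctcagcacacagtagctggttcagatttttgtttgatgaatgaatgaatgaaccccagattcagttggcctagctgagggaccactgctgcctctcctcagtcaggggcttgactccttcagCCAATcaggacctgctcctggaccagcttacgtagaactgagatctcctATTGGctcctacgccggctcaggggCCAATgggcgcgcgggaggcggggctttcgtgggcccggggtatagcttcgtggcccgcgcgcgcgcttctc
Mthfd1l: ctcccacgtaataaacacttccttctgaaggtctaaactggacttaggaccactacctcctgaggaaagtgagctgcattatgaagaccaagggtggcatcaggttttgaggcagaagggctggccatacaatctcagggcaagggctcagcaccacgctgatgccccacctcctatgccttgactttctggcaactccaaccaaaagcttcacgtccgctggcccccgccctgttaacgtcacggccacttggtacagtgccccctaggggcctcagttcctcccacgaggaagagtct
Phgdh: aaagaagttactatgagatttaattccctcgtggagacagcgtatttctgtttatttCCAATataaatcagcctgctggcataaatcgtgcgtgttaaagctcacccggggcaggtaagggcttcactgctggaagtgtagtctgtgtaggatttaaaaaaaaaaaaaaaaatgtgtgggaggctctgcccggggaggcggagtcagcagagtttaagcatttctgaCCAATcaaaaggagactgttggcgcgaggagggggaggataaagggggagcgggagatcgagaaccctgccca
Aldh18a1: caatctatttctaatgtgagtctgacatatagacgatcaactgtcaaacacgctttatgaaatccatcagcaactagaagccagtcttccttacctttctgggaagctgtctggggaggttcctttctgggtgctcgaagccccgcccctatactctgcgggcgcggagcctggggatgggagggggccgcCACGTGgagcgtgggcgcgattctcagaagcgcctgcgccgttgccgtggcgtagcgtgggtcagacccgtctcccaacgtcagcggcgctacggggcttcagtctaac

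The E-box CACGTG, which reads the same on both strands, was found in the window of 1 of the 9 genes, *Aldh18a1*, beginning 59 bases before the start. Over 27025 genes with such a window, 8.09% held it. The window of *Mthfd2* held 3 CCAAT boxes, at 96, 47 and 22 bases before the start, the second of them on the opposite strand. That of *Phgdh* held 2, at 193 and 23 bases before the start. In all, 6 of the 9 genes had a CCAAT box on either strand, against 41.1% of all genes. The 6 include *Psat1*, *Psph*, *Shmt1* and *Mthfd1*, which stayed within 1.5-fold, whereas *Mthfd1l* and *Aldh18a1*, which were higher, had no CCAAT box. TGATGNAA, a form of the element bound by C/EBP and ATF factors, and TGACGTCA, the cAMP response element, were searched on both strands and were in none of the 9 windows, against 4.51% and 2.03% of all genes. None of these motifs overlapped another in the printed windows. A match is a description of the letters in a window, not of a bound site, and the absence of a match says nothing of elements outside it.

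Most of the genes that differed were dim on both arrays. When the genes well above background on both arrays were split into 4 equal bins by mean signal, 6 of the 10 genes fell in the dimmest bin, *Mthfd2*, *Mthfd1l*, *Aldh1l2*, *Aldh18a1*, *Psat1* and *Shmt1*. *Phgdh* and *Psph* were in the next bin and *Shmt2* and *Mthfd1* in the third. Of the 6 dimmest genes 3 passed 1.5-fold upward and 1 downward, where 8.43% and 8.64% of all genes in that bin did. In the next bin *Phgdh* passed upward, where 5.03% of all genes did and 3.71% passed downward. In the third bin neither gene of the group passed (3.49% and 3.07% of all genes did), and the brightest bin, with 3.46% and 2.6%, held none of the group. Replicate spots give a further scale for these ratios. For 53 probes that were printed 8 or more times and had a mean signal under 100, the log2 ratio varied between spots with a median SD of 0.21, and for 52 such probes between 100 and 300 that SD was 0.10. The ratios of *Mthfd2*, *Mthfd1l*, *Aldh1l2* and *Aldh18a1* were larger than the spread of spots under 100, also at the 95th percentile of its probes (0.37). The ratios of *Psph* and *Shmt1* were smaller than its median. That of *Psph* was about the size of the SD between 100 and 300. For 68 probes printed 8 or more times with a mean signal between 300 and 1000, the median SD was 0.07. The ratios of *Shmt2* and *Mthfd1* (-0.17 and -0.22) were larger in size than that SD, although without scaling they were -0.02 and -0.07. With a normexp background correction and an offset of 50, which by construction draws dim spots toward equal signal, *Mthfd2* was at 0.73 and the other genes lost the 1.5-fold difference, with *Phgdh* at 0.47, *Mthfd1l* at 0.36, *Aldh18a1* at 0.32 and *Aldh1l2* at -0.48.

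**Figure D3:**
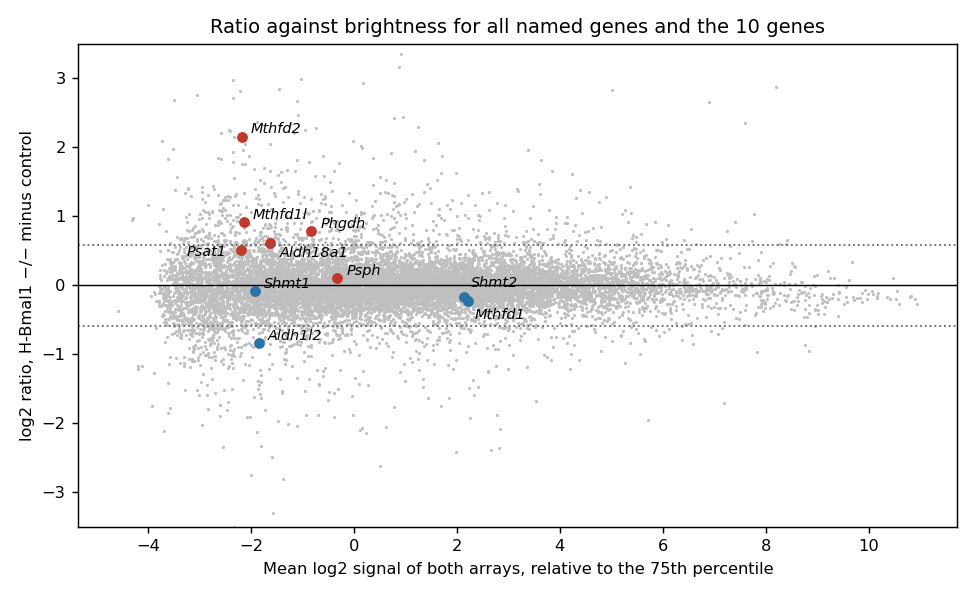
Log2 ratio, H-Bmal1-/- pool minus control pool (vertical axis), against the mean log2 signal of both arrays relative to the 75th percentile (horizontal axis). Gray points are all named genes well above background on both arrays except 4 beyond the axis at 3.5, colored points are the 10 genes, and *Mthfd2* at 2.16 lies at the dim side of the plot, where the gray points spread more widely.

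Genes next to this group in the same pathways were mostly within 1.5-fold. So were most genes on the arrays, of which 6.15% were at least 1.5-fold higher and 5.85% lower. Of 7 other genes of proline synthesis and breakdown, 4 were measured, and their median log2 ratio was -0.39 (-0.24 without scaling). *Aldh4a1*, *Prodh* and *Oat*, which break down proline or exchange its precursor with ornithine, were at -0.48, -0.39 and -0.39. The direction of *Aldh18a1* was thus not shared by the enzymes that break proline down. Of 11 measured other enzymes of folate metabolism, 5 lay above 0 and 6 below it and none reached 1.5-fold, with a median of -0.02 that was 0.13 without scaling and also above 0 after quantile normalization, cyclic loess, spike-in scaling and normexp. They included *Mthfd2l*, the mitochondrial paralog of *Mthfd2* found in adult tissues, with 258 in the H-Bmal1-/- pool and 248 in the control pool and a log2 ratio of -0.09 ± 0.20. The lowest of them was *Aldh1l1*, the cytosolic counterpart of *Aldh1l2*, at -0.36 ± 0.21. At the other end, *Mtrr*, which keeps methionine synthase active, had a signal of 15.4 in the H-Bmal1-/- pool and 7.63 in the control pool, not well above background there, and was at least 1.26-fold higher.

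Folate carriers and receptors, glycine cleavage and the methionine cycle were measured in the same way. Of 5 genes of folate transport, 2 had a log2 ratio above 0 and 3 below it, and their median was -0.06 (0.10 without scaling). *Slc19a1*, the reduced folate carrier, was at 0.44, but its probes lay at -0.27 and 1.15, and it turned to -0.27 with its brightest probe alone and to -0.02 after normexp. *Folr1*, a folate receptor, was at -0.53, and *Slc25a32*, the mitochondrial folate carrier, at -0.06. The 3 measured genes of the mitochondrial glycine cleavage system, which like SHMT2 yields a 1-carbon unit, had a median of 0.11 (-0.01 after normexp). None reached 1.5-fold, where 6.15% of all genes were higher and 5.85% lower by as much. Of these 3 genes *Gcsh* was at 0.26, with its 3 probes between 0.00 and 0.63, and *Dld* at -0.18. Of 8 measured genes of the methionine cycle and transsulfuration, 6 were lower, with a median of -0.15, but without scaling 4 were lower and the median was -0.0033. By at least 1.5-fold 2 of the 8 were lower, where 5.85% of all genes were. Without scaling or after normexp 1 of the 8 was, where 530 and 248 of all 13848 genes were. *Gnmt*, which uses a methyl group to turn glycine into sarcosine, had a signal of 39.1 in the H-Bmal1-/- pool and 141 in the control pool and was 4.02-fold lower (log2 ratio -2.01 ± 0.23, and -1.11 after normexp). *Cth*, the last enzyme of transsulfuration, had a log2 ratio of -0.65 ± 0.18, which was -0.50 without scaling and -0.35 after normexp. Both of these genes draw on the products of serine and methionine, and both were lower while *Phgdh* was higher. Whether these differences are related was not tested.

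Of 14 genes that are linked to ATF4 or the wider stress response, 12 were higher in the H-Bmal1-/- pool and 5 of them by at least 1.5-fold, against 6.15% of all genes, with a median log2 ratio of 0.49. Without scaling 8 of the 14 passed 1.5-fold upward, where 1337 of all 13848 genes did, against 852 with scaling. *Gdf15*, a secreted stress factor, had a signal of 1148 in the H-Bmal1-/- pool and 101 in the control pool (log2 ratio 3.35 ± 0.21). *Fgf21*, another secreted factor, had a signal of 33.9 in the H-Bmal1-/- pool and 2.27 in the control pool, not well above background there, and was at least 2.76-fold higher, a bound that was 0.42 on the log2 scale after normexp. *Ddit4*, an inhibitor of mTORC1 signaling, was at 1.05, *Asns*, the asparagine synthetase, at 0.87 and *Nupr1*, a stress-induced chromatin protein, at 0.70. *Atf4* itself was at 0.27 ± 0.14, and *Ddit3*, which encodes CHOP, was at -0.18 and *Vldlr*, a lipoprotein receptor, at -0.58. The log2 ratios of *Phgdh* and *Mthfd1l* (0.78 and 0.92) were of the size of that of *Asns*. That of *Mthfd2* was larger than those of the 13 genes of this list well above background in both pools except *Gdf15*. The remaining genes of the group lay lower, from *Aldh18a1* at 0.62 down to *Aldh1l2* at -0.84. After normexp *Mthfd2* (0.73), *Phgdh* (0.47) and *Mthfd1l* (0.36) all lay below *Asns* (0.75). A part of ATF4 in these differences was not tested.

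**Figure D4:**
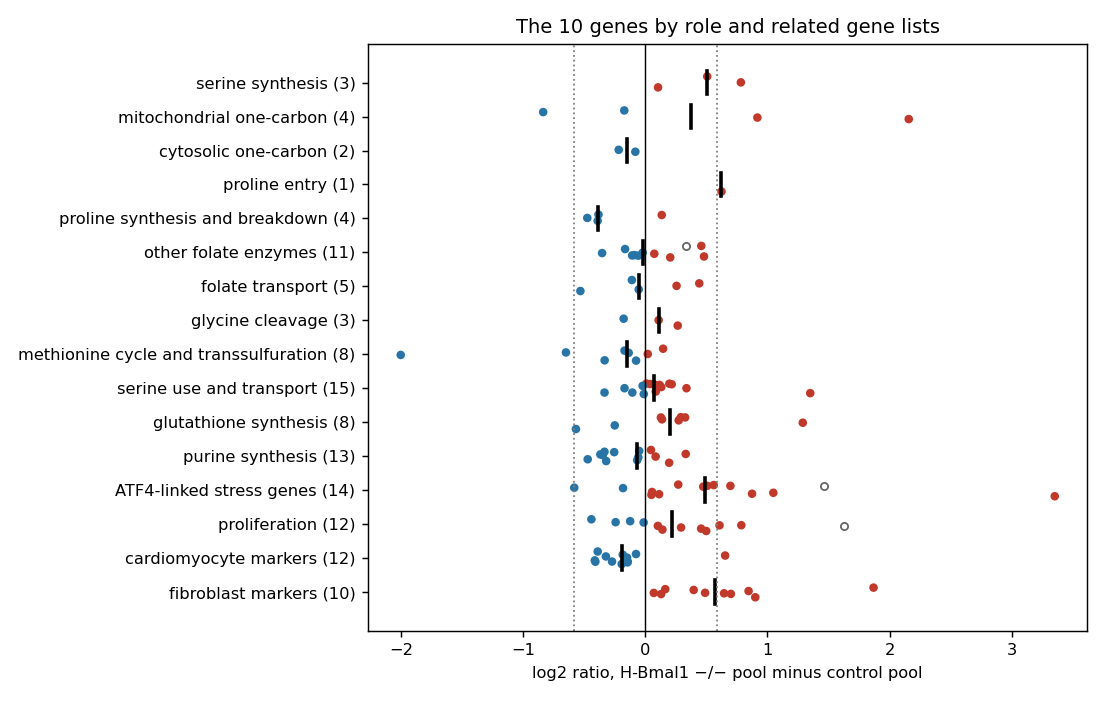
Log2 ratio, H-Bmal1-/- pool minus control pool, of each measured gene in the group by role (top 4 rows) and in related lists, with the number measured in parentheses. Filled points are red above 0 and blue below 0, open points were well above background in 1 pool only and are drawn at their bound, black bars are medians and dotted lines mark 1.5-fold. Points of the ATF4-linked and fibroblast lists lie mostly to the right of 0, with medians of 0.49 and 0.57.

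The pools also differed in markers of cell types and of cell division. All 10 fibroblast markers were higher in the H-Bmal1-/- pool, between 0.07 and 1.87 with a median of 0.57, and the sum of their scaled signals was 631 in the H-Bmal1-/- pool and 475 in the control pool. Of 12 cardiomyocyte markers 11 were lower and *Csrp3*, a muscle LIM protein, was at 0.65, with a median of -0.19 (7 lower without scaling, median -0.04, and 7 lower after quantile normalization), and the sum was 8342 in the H-Bmal1-/- pool and 9397 in the control pool. All markers on both of these lists were well above background in both pools. Of 12 measured proliferation genes 8 were higher, with a median of 0.22 (0.37 without scaling and 0.10 after normexp). By at least 1.5-fold 3 of the 12 were higher, where 6.15% of all genes were, and 0 after normexp, where 369 of all 13848 genes were. The sum was 15.8 in the H-Bmal1-/- pool and 15.9 in the control pool, but it is weighted to *Pcna*, the brightest of the list (signals of 1688 and 1658), and says little of the other genes. *Aurkb* and *Cdk1* of that list were not well above background in either pool and gave no value. *Top2a* had a signal of 48.2 in the H-Bmal1-/- pool and 14 in the control pool, not well above background there. Its measured ratio was 3.09-fold higher, which is not a lower limit (0.39 on the log2 scale after normexp). *Birc5* and *Ccna2* were at 0.79 and 0.61 (0.17 and 0.34 after normexp), while *Tk1*, *Rrm2* and *Pcna* of nucleotide and DNA synthesis were at -0.44, -0.24 and -0.13. Endothelial markers (10 measured), smooth muscle and pericyte markers (8) and macrophage and leukocyte markers (10) had medians of -0.11, -0.18 and 0.05 (0.04, -0.02 and 0.20 without scaling). On these lists 1 gene passed 1.5-fold, *Abcc9* at -1.01, where 6.15% of all genes were higher and 5.85% lower by as much. In tissue RNA, fewer cells of a type and less RNA per cell cannot be told apart. The part of these markers in the differences of *Mthfd2*, *Mthfd1l*, *Phgdh*, *Aldh18a1* and *Aldh1l2* was not tested.

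As a check of the genotype, *Arntl* (*Bmal1*) was 1.74-fold lower in the H-Bmal1-/- pool, at a probe whose place relative to the deleted exon was not known, and *Nr1d1*, a target of BMAL1, was 4.26-fold lower. Of 59305 noncontrol spots, 29672 were well above background in the H-Bmal1-/- pool and 29288 in the control pool, and 0 were saturated on either array. Over the 8 alternative settings other than normexp and the absence of scaling, *Mthfd2* lay between 2.15 and 2.22, *Mthfd1l* between 0.85 and 0.98, *Phgdh* between 0.76 and 0.82, *Aldh18a1* between 0.61 and 0.67 and *Aldh1l2* between -0.84 and -0.78. *Mthfd2*, *Aldh18a1* and *Aldh1l2* have 1 probe each, well above background in both pools. Filters on dim probes and the choice of the brightest probe therefore cannot move them, and the authors' table is no check. Their narrow ranges come from the other scalings alone. Without scaling between the arrays every ratio was 0.15 higher, and *Psat1*, at 0.66, joined the genes at least 1.5-fold higher. Of all 13848 genes, 1337 were that high without scaling, against 852 with scaling.

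**Figure D5:**
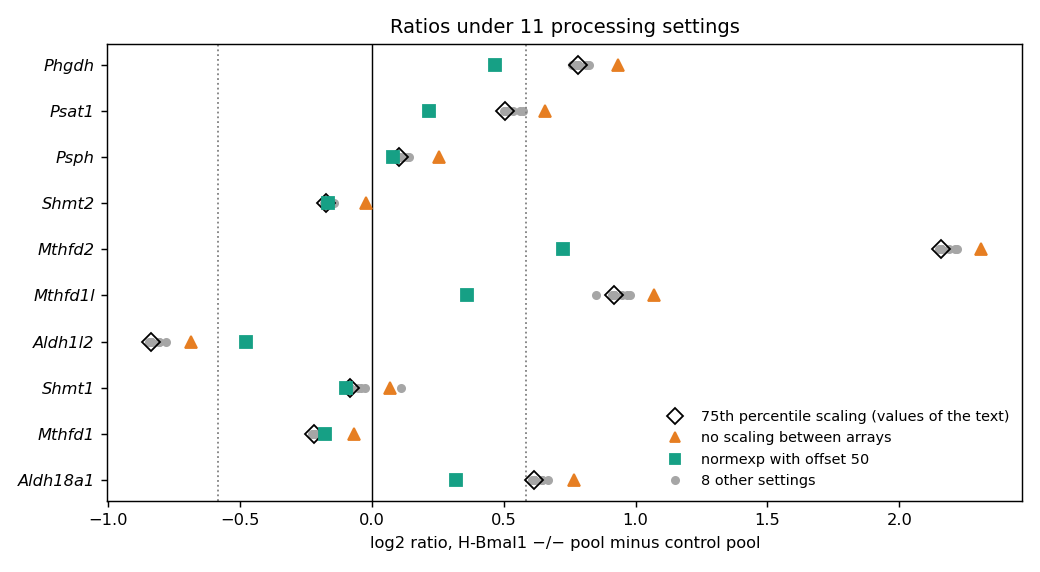
Log2 ratio, H-Bmal1-/- pool minus control pool, of the 10 genes under 11 processing settings. Open black diamonds are the values of the text, orange triangles those without scaling, green squares those after normexp with an offset of 50 and gray points those of 8 other settings, and dotted lines mark 1.5-fold. *Mthfd2* stays to the right of the 1.5-fold line under all 11 settings, down to 0.73 after normexp. It has 1 probe, so the probe filters and the brightest-probe setting cannot move it.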

How the data were processed

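Left ventricular RNA of 6 animals per genotype was pooled, labeled with Cy3 and hybridized to 1 array per genotype. The deposited intensities are the processed signal and its error made by Agilent Feature Extraction from the scanned images, with background subtracted; they are linear and carry no scaling from array to array. The submitters' processing notes give version 10.5.1.1 and the scanner output 10.10.1.1. The authors' deposited value table holds the same signal intensity times 1 factor per array (log2 factor 2.31 for H-Bmal1-/- and 2.45 for control, medians of 64 and 67.2), and no source used here gives the rule behind the factor. The spot flags of the deposited files, coded as other values, served as filters.

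The 75th percentile of noncontrol spots was subtracted on the log2 scale. Control spots and 269 spots with an outlier flag were left out. Of 55676 probes, 26759 were named by matching their accession to mouse RefSeq genes of GRCm38.p6, whereas the array was designed on mm9, so positions are those of RefSeq and not of the probes. The value of a gene is the mean over those of its probes that either array measured well above background. The error of a ratio combines the spot errors of both arrays, and probes are taken as independent. A gene with no probe well above background on 1 array, or a single such probe, was set at its bound, the bright value against its own dim value or, if that was lower, against the lowest signal called well above background. A gene with a further bright probe, as *Psat1*, kept the mean of its measured ratios. Where the dim value was the higher, as for *Top2a*, the bound is only the measured ratio.

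The genes, lists, motifs and threshold were chosen with earlier results of these data known. The text names all 10 genes and, of each related pathway list, the genes at least 1.5-fold different or else the highest and lowest, and a few neighbors (*Prodh*, *Oat*, *Mthfd2l*, *Slc25a32*, *Csrp3*, *Abcc9*, *Gclc*, *Gclm*, *Gss*, *Gart*, *Atic*, *Atf4*, *Ddit3*, *Vldlr*, *Tk1*, *Rrm2* and *Pcna*) chosen after their values were seen. Marker lists are given by counts, range and median. The value of 1 gene that this rule would name is not reported here. With 2 arrays the pattern of a gene is 1 ratio, so no genes of like pattern are named. The alternatives were quantile normalization, the median of probes above background, no scaling, 7 E1A spike-in probes, cyclic loess, normexp on the median signal and local background, 2 filters on dim probes, the brightest probe, the authors' table and thresholds of 1.25-fold and 2-fold. The steps were tested on simulated data. Python 3.11.15, numpy 2.4.6, pandas 2.3.3, matplotlib 3.10.9, R 4.3.3 and limma 3.58.1 were used.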

Additional observations from a re-analysis of the deposited data

How the results depend on the processing

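No paired analysis was possible because each genotype has 1 array, and for the same reason no replicate could be left out. Of 10 genes, 4 at least 1.5-fold higher and 1 lower was the count under quantile normalization, the median of detected probes, spike-in scaling, cyclic loess, both filters on dim probes and the brightest probe, and it was 5 and 1 without scaling and at the lowest threshold. After normexp it was 1 higher and 0 lower, with a median of the 10 genes of 0.15, and at a threshold of 2-fold it was also 1 higher and 0 lower. The median was 0.46 without scaling, where the median of all genes was 0.14, and 0.30 to 0.36 under the 8 remaining settings. The authors' table differs by 1 factor per array, so that once scaled it returns the same values by construction and is no check. The offset of normexp draws dim spots together by construction. Both filters on dim probes and the brightest probe could not move *Mthfd2*, *Aldh18a1* and *Aldh1l2*, which have 1 probe each, well above background in both pools. The probes of *Phgdh* lie close together (0.76 and 0.81), so these settings say little about the count.

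The direction turned for *Shmt1*, at 0.068 without scaling and 0.11 for its brightest probe. Among list medians, other folate enzymes turned to 0.0065 under quantile normalization, 0.13 without scaling, 0.0069 with spike-ins, 0.012 with cyclic loess and 0.060 after normexp. Without scaling, folate transport was at 0.096, purine synthesis at 0.083 and endothelial markers at 0.041, and after normexp glycine cleavage was at -0.015. In the control pool *Mthfd2* and the second probe of *Psat1* had 1.62 and 0.973 times the lowest signal well above background, and the number of arrays limits every value.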

Other observations

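Genes that use or carry serine were mostly within 1.5-fold, where 6.15% of all genes were higher and 5.85% lower by as much. Of 15 measured genes on this list 10 were higher, with a median log2 ratio of 0.07, although without scaling 13 were higher and the median was 0.22. The exception was *Serinc2*, a member of the family of serine incorporators, with mean signals of 40.9 in the H-Bmal1-/- pool and 14.1 in the control pool, a log2 ratio of 1.35 over 3 probes between 0.90 and 1.58, and 0.35 after normexp. Of 8 measured genes of glutathione synthesis and turnover, which takes up glycine and cysteine, 6 were higher, with a median of 0.20 (0.36 without scaling). *Chac1*, which breaks glutathione down, was the one at least 1.5-fold higher, where 6.15% of all genes were. Its signals were 510 in the H-Bmal1-/- pool and 188 in the control pool, with a log2 ratio of 1.29 ± 0.20. *Gclc*, *Gclm* and *Gss*, which build glutathione, were at 0.13, 0.32 and 0.29.

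Purine synthesis takes 1-carbon units from folate. None of its 13 measured genes reached 1.5-fold, where 6.15% of all genes were higher and 5.85% lower by as much. Of the 13 genes 9 had a log2 ratio below 0 and 4 above it, and the median was -0.07 (0.08 without scaling). *Prps2*, a phosphoribosyl pyrophosphate synthetase, was lowest at -0.47 ± 0.22 and *Adssl1*, the muscle adenylosuccinate synthase, highest at 0.33 ± 0.20. *Gart* and *Atic*, the enzymes that consume formyl-folate, were at -0.37 and 0.08.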
